A study of Drosophila melanogaster with 2 samples.

Results

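The nuclear-encoded subunits of oxidative phosphorylation were followed through the cell types of the third instar larval brain of Drosophila melanogaster. They were taken as every gene row whose symbol begins with ND-, SdhA to SdhD, UQCR-, COX4 to COX8 or ATPsyn, which gave 80 of 17472 named rows. By complex these were 40 rows of complex I, 6 of complex II, 8 of complex III, 11 of complex IV and 15 of complex V. The symbol rule itself uses no measured value, although the set was picked with earlier results of these data known. The 37 rows starting with mt: (transcripts of the mitochondrial genome) served only for comparison.

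Complexes I to IV pass electrons from NADH and succinate to oxygen and, except for complex II, pump protons across the inner mitochondrial membrane. Complex V, the ATP synthase, lets the protons return and makes ATP. Complexes I, III, IV and V combine subunits from both genomes, so their assembly draws on nuclear and mitochondrial transcripts together, whereas complex II is encoded by the nucleus alone. Neurons are known to rely on this pathway for synaptic and electrical activity, and dividing neural stem cells of the fly use it as well.

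The study sequenced dissociated L3 brains with droplet-based 3 prime single-cell chemistry, in 1 library of methanol-fixed cells (MeOH) and 1 of fresh cells. The MeOH library pooled 7 inbred lines of the DGRP panel (DGRP-761, DGRP-639, DGRP-502, DGRP-409, DGRP-382, DGRP-136 and DGRP-45), and each of its cells carries the name of its line. The fresh library came from a single hybrid based on DGRP-551. No mutation or treatment is given in the labels of either library. Strain, fixation and preparation therefore varied together, and the libraries cannot be told apart from them. The written protocol mentions methanol for each sample, so the groups rest on the fixation label. Of 5056 listed cells, 2715 were MeOH with 13232788 UMIs (unique molecular identifiers, each standing for 1 captured transcript; median 3564 per cell), and 2341 were fresh with 19752319 UMIs (median 6598). The libraries shared 11 cell barcodes.

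Cells were grouped by the deposited annotation, which was itself clustered from these counts. Neuroblasts are the neural stem cells, ganglion mother cells (GMC) their dividing daughters, and Hey+ neurons are annotated by Hey, a gene of newborn neurons. Clusters that bear only a number were called neuronal by marker genes. Clusters 3 and 33 and the cells annotated G-KC were called mature-like, since at least 4 of 6 mature neuron markers reached 1.5 times their level in all neurons. Cluster 1 (397 MeOH and 13 fresh cells), cluster 31 and Hey+, Lamina and SUR cells were kept apart, and neurons below are mature-like and other neurons together (1749 MeOH and 1724 fresh cells). Glia are the cells annotated AST, ENS and CTX. The 10 neuronal markers summed to 8362 CPM (counts per 1000000 UMIs) in MeOH and 7088 CPM in fresh mature-like neurons, against 1017 CPM in MeOH and 460 CPM in fresh glia. The 8 glial markers summed to 2749 CPM in MeOH and 2495 CPM in fresh glia, and to between 62 and 112 CPM in the 2 neuronal classes. The 7 neuroblast markers summed to 1946 CPM in MeOH and 2191 CPM in fresh neuroblasts, and to 1162 and 1298 CPM in GMC of these libraries. GMC were not free of neuronal transcripts. Their 10 neuronal markers summed to 3766 CPM in MeOH and 2227 CPM in fresh cells, against 1074 and 723 CPM in neuroblasts. The 3 newborn neuron markers summed to 3873 and 2355 CPM in GMC, against 1439 and 729 CPM in neuroblasts.

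A small set of transcripts dominated the pathway. In neurons the highest member was ATPsynC, which forms the rotor ring of ATP synthase, at 1705 CPM in the MeOH library (exact Poisson 95% interval 1675 to 1735) and 2558 CPM in the fresh library (2531 to 2585). UQCR-11, a small subunit of complex III, followed in MeOH neurons with 1352 CPM, against 1080 CPM in fresh neurons. ATPsynbeta, the catalytic subunit of ATP synthase, stood at 847 CPM in MeOH and 1322 CPM in fresh neurons. COX6B was the highest nuclear subunit of cytochrome c oxidase, at 999 CPM in MeOH and 1008 CPM in fresh neurons. Each UMI marks the end of 1 transcript, so these levels need no correction for length, although capture may differ between genes.

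Complex I and II subunits were carried at far lower levels. ND-MLRQ was the highest row of complex I, with 576 CPM in MeOH and 580 CPM in fresh neurons, and ND-ACP, the mitochondrial acyl carrier protein, came next with 423 and 424 CPM. The core subunits ND-75 (72.3 CPM in MeOH and 81.6 CPM in fresh neurons) and ND-23 (73.5 and 83.1 CPM) were the lowest of its well detected rows. SdhA, the flavoprotein of succinate dehydrogenase that joins it to the citric acid cycle, had 62.2 CPM in MeOH and 61.3 CPM in fresh neurons. Its anchor subunit SdhC had 261 CPM in MeOH and 294 CPM in fresh neurons.

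The members divided sharply into expressed subunits and near-silent copies. Rows named as a copy of another subunit by a final L, 18 in all, had between 0 and 79 UMIs over both libraries. ND-20L, ND-49L, ND-51L2, ND-B14.5AL, SdhAL, SdhBL, UQCR-14L and COX6AL had no UMI, which allows up to 0.227 CPM in the MeOH library and 0.152 CPM in the fresh library (the level of 3 counts, covering counting error only). The highest copy was ATPsynepsilonL with 79 UMIs, followed by COX7AL with 19 UMIs beside 25968 of COX7A, and ND-51L1 with 18 UMIs beside 3614 of ND-51. The copies ATPsynGL and ATPsynbetaL had 8 UMIs each, 5 of those of ATPsynGL in 1 cell, beside 32427 UMIs of ATPsynG and 35026 of ATPsynbeta. ND-B8 (23 UMIs) and ND-MNLL (139 UMIs) were the only rows without such a name at this level. All 720 exon bases of ND-MNLL (chromosome X, 7893053 to 7893798 in dm6) are also annotated to CG45089 on the same strand, so its count is uncertain. The other 60 members passed the filter on low counts in at least 1 of the tests below.

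**Figure D1:**
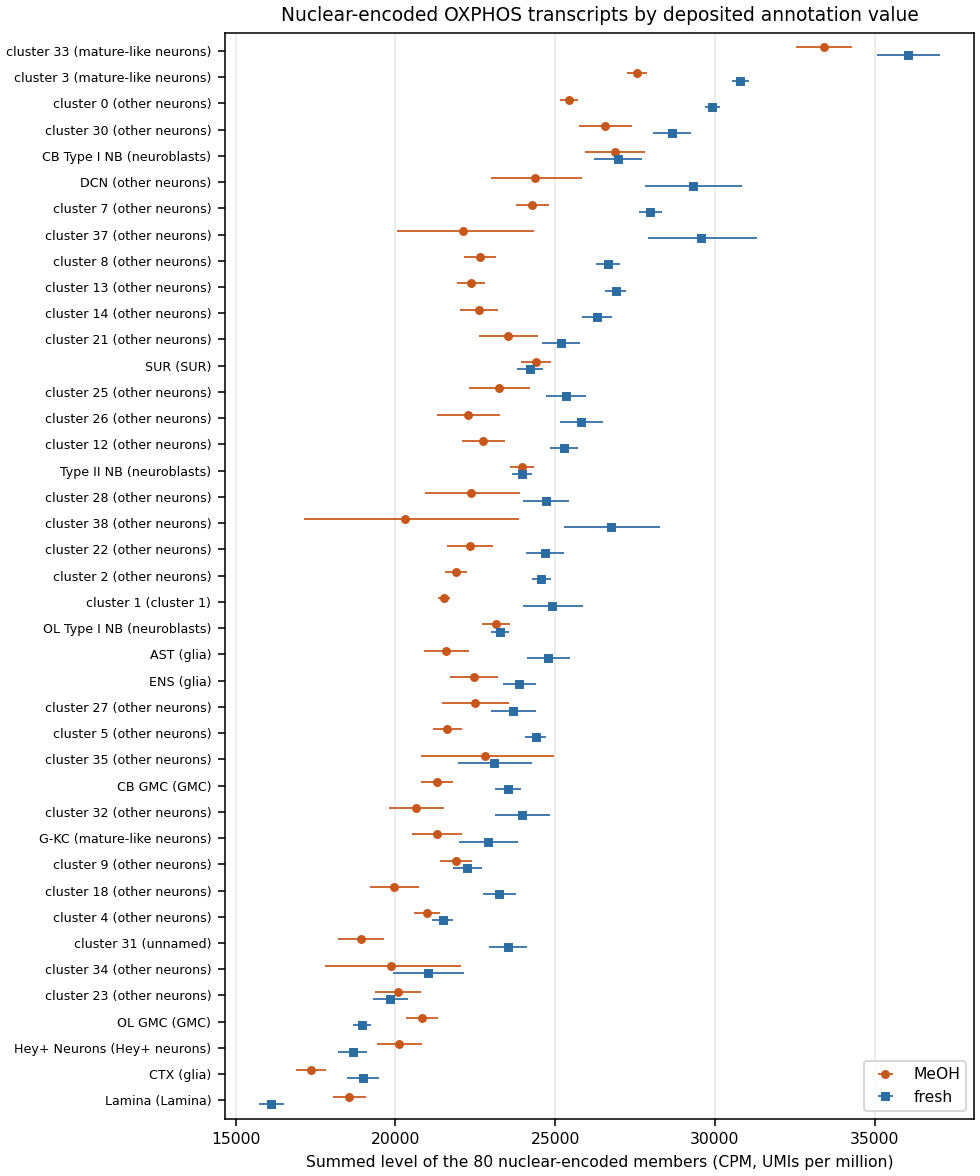
Summed level of the 80 members in each deposited annotation value (CPM on the x axis, which does not start at 0; bars are exact Poisson 95% intervals), with MeOH as circles and fresh as squares. Cluster 33 lies furthest right in both libraries (33407 CPM in MeOH and 36041 CPM in fresh), with CTX glia furthest left in MeOH and Lamina furthest left in fresh. Cluster 33 holds only 19 MeOH and 6 fresh cells.

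Together the members took 23804 CPM of MeOH neurons (23693 to 23915) and 26672 CPM of fresh neurons (26585 to 26759), thus over 2% of all transcripts. As the plot by annotation value shows, cluster 33 was highest with 33407 CPM in the MeOH library and 36041 CPM in the fresh library, followed by cluster 3 with 27570 and 30799 CPM. The mature-like G-KC cells did not share these levels, with 21294 CPM in the MeOH library and 22893 CPM in the fresh library, below the other neurons at 22920 and 25925 CPM. The values of cluster 33 rest on only 19 MeOH and 6 fresh cells, and the Poisson intervals cover counting error only. Glia annotated CTX were lowest in the MeOH library (17362 CPM) and Lamina cells in the fresh library (16126 CPM). Hey+ neurons were low in both, with 20114 CPM in MeOH and 18665 CPM in fresh cells.

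Some differences within a class recurred in both libraries. Neuroblasts of the CB Type I NB annotation had 26872 CPM in MeOH and 26958 CPM in fresh cells, above those of the OL Type I NB annotation, with 23149 and 23279 CPM. The CB neuroblast values rest on 16 MeOH and 10 fresh cells. GMC of the CB GMC annotation exceeded those of the OL GMC annotation by much less in MeOH (21293 against 20837 CPM) than in fresh cells (23517 against 18944 CPM). Over the 35 annotation values with at least 10 cells in both libraries, the summed levels of the libraries correlated with a Pearson r of 0.81 and a Spearman rho of 0.77. These points share a library on each axis, and they share a clustering, so r is given as a description. Within neuronal values the summed level also went with the mean UMIs per cell (r of 0.45 and rho of 0.29 in MeOH, r of 0.63 and rho of 0.63 in fresh, over 22 values), and the part of depth in it was not tested.

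As a class, mature-like neurons carried more of these transcripts than other neurons, most evenly so among the core subunits of complex I. Cluster 3 made up most of the class, with 184 of its 231 MeOH cells. The G-KC cells of the class (28 in MeOH) lay below other neurons in summed level in both libraries. No test was run without cluster 3. Tests used counts summed per line of the MeOH library, with the line as a block, in the quasi-likelihood test of edgeR, and a gene was called when its Benjamini-Hochberg adjusted p over all genes tested was under 0.05. Of 60 members tested, 30 were higher and 2 lower, where 19.3% of all 5126 genes were called higher, 16.7% lower and 36.0% in either direction. The median log2 fold change was 0.32 over the members and -0.02 over all genes. Fresh cells gave the same direction for 32 of 32 called members, with a median over the 60 of 0.40. The summed level was higher in mature-like than in other neurons in 6 of 7 lines, with DGRP-45, which had 10 mature-like cells, as the exception. The p-values measure the spread between 7 lines that each came from 1 pool, and the class itself was drawn from the same counts.

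All 7 core subunits of complex I that were tested were called higher, against 10 of 25 accessory subunits, 1 of which was lower. The core subunits ND-75, ND-51, ND-49, ND-30, ND-24, ND-23 and ND-20 belong to the arm that carries the flavin and the iron-sulfur clusters, and their log2 fold changes lay between 0.49 and 0.72. ND-23 ranged over the lines from 83.0 to 157 CPM (median 99.4) in mature-like neurons, against 51.6 to 73.3 CPM (median 69.2) in other neurons. Every line lay higher and the ranges did not overlap, with a log2 fold change of 0.72 ± 0.19 (SE, adjusted p = 0.0059, edgeR quasi-likelihood test, Benjamini-Hochberg).

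The largest rise of complex I was that of ND-B14.5A, an accessory subunit. It ranged from 107 to 176 CPM (median 154) in mature-like neurons and from 67.5 to 107 CPM (median 80.3) in other neurons, with no overlap between the classes. Its log2 fold change was 0.79 ± 0.16 (SE, adjusted p = 0.0009, edgeR quasi-likelihood, Benjamini-Hochberg), and its fresh levels were 173 and 87.7 CPM. ND-MLRQ, the most abundant row of the complex, was not called, with a log2 difference of 0.18.

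Of complex II, SdhB and SdhC were called higher, and SdhA and SdhD had log2 differences of 0.49 and 0.42 without passing the test. SdhB, the iron-sulfur subunit, ranged from 150 to 238 CPM (median 184) in mature-like neurons and from 102 to 149 CPM (median 133) in other neurons. These ranges did not overlap, and the log2 fold change was 0.56 ± 0.14 (SE, adjusted p = 0.0049, edgeR quasi-likelihood, Benjamini-Hochberg). SdhC lost its call without DGRP-409 (adjusted p = 0.054, edgeR, Benjamini-Hochberg).

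Of 6 members of complex III tested, 4 were called higher and 1 lower. Both large core proteins were higher in mature-like neurons, and UQCR-C1 ranged from 193 to 379 CPM (median 286) there, against 149 to 228 CPM (median 176) in other neurons. It was higher in 7 of 7 lines, with a log2 fold change of 0.73 ± 0.14 (SE, adjusted p = 0.00043, edgeR quasi-likelihood, Benjamini-Hochberg). UQCR-11 went the other way, with 817 to 1943 CPM (median 1056) in mature-like and 1108 to 2078 CPM (median 1228) in other neurons. It was lower in 7 of 7 lines although the ranges overlapped widely, since DGRP-761 was high in both classes, and its log2 fold change was -0.29 ± 0.08 (SE, adjusted p = 0.012, edgeR quasi-likelihood, Benjamini-Hochberg). Without the line as a block the call on UQCR-11 was lost (adjusted p = 0.40, edgeR, Benjamini-Hochberg).

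The other member called lower was ND-B12, an accessory subunit of the membrane arm of complex I. It had 172 to 575 CPM (median 288) in mature-like and 328 to 723 CPM (median 344) in other neurons, lower in 7 of 7 lines. Its log2 fold change of -0.33 ± 0.12 (SE, adjusted p = 0.037, edgeR quasi-likelihood, Benjamini-Hochberg) was not called without DGRP-136, DGRP-409, DGRP-45, DGRP-639 or DGRP-761 (highest adjusted p 0.11). In the fresh library ND-B12 differed little, with 301 and 306 CPM.

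In complex IV the called members were COX4, COX5B, COX6B and COX7C, all higher. COX4, the largest nuclear-encoded subunit of the enzyme, ranged from 301 to 793 CPM (median 626) in mature-like neurons and from 364 to 430 CPM (median 405) in other neurons. It was higher in 6 of 7 lines, with DGRP-45 below, and its log2 fold change was 0.59 ± 0.14 (SE, adjusted p = 0.0025, edgeR quasi-likelihood, Benjamini-Hochberg). COX6B had a smaller log2 fold change of 0.30 ± 0.08.

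Complex V moved least, with a median log2 difference of 0.13 and 3 of 11 members called higher. ATPsynB, of the peripheral stalk, ranged from 492 to 720 CPM (median 610) in mature-like and from 380 to 492 CPM (median 415) in other neurons. The ranges did not overlap, and the log2 fold change was 0.53 ± 0.11 (SE, adjusted p = 0.00086, edgeR quasi-likelihood, Benjamini-Hochberg). ATPsynC was not called (log2 difference 0.19), and in the fresh library it had 2566 CPM in mature-like and 2557 CPM in other neurons. It was called without DGRP-45 (adjusted p = 0.018, edgeR, Benjamini-Hochberg).

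**Figure D2:**
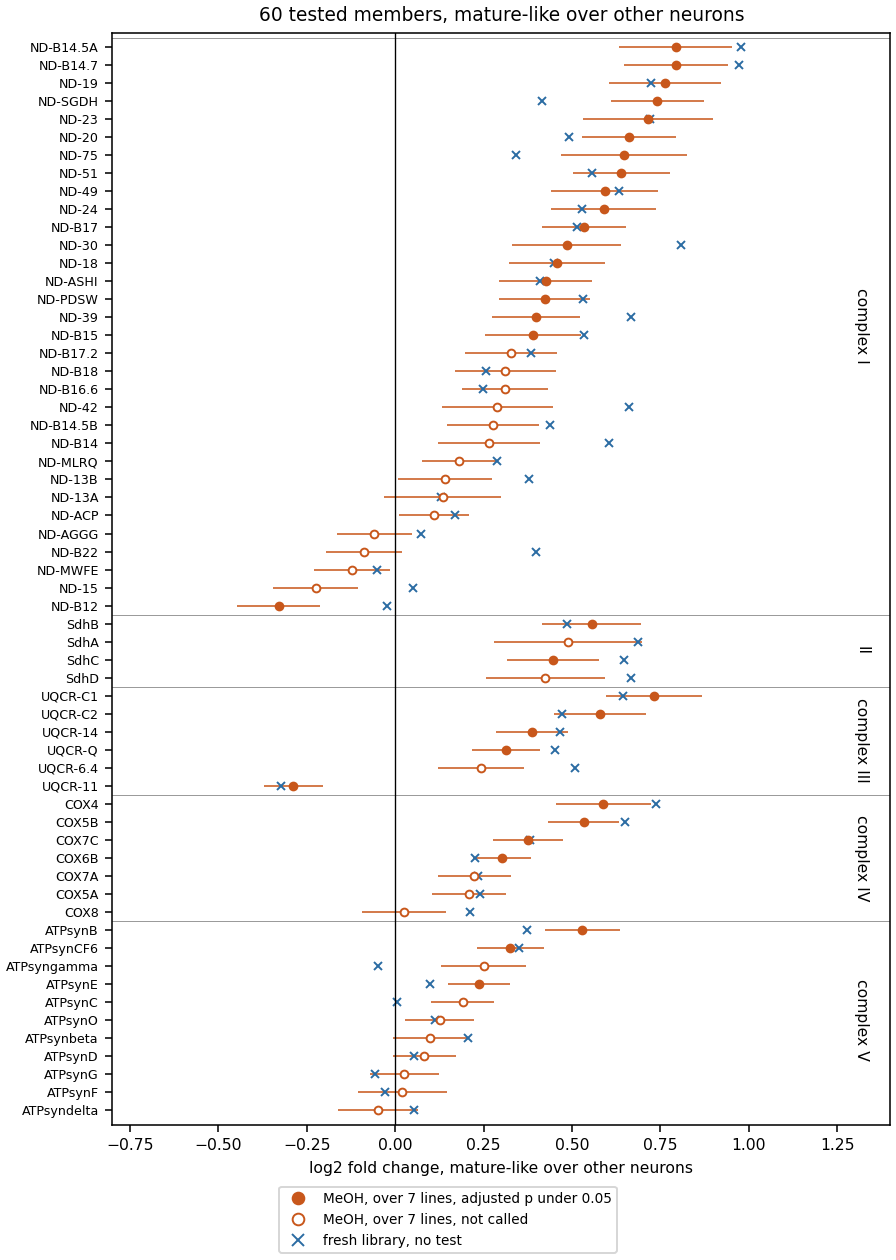
Log2 fold change of the 60 tested members in mature-like over other neurons, grouped by complex. Circles are MeOH values over 7 lines with their SE, filled where the adjusted p was under 0.05, and crosses are the fresh library, which has no replicates. Most complex I values lie right of 0, with ND-B14.5A at 0.79, and most complex V values lie near 0.

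Other genes of the pathway went the same way. Of 8 tested subunits whose names fall outside the symbol patterns, cype, Cyt-c-p, ox, RFeSP and Cyt-c1 were called higher and none lower. Cyt-c-p, the cytochrome c that shuttles electrons to complex IV, ranged from 359 to 847 CPM (median 480) in mature-like neurons and from 95.8 to 162 CPM (median 125) in other neurons. Its log2 fold change was 1.98 ± 0.14 (SE), against at most 0.79 among the 60 members tested. The carriers sesB and Mpcp2 and the pore protein porin were 3 of 3 higher. So were 7 of 11 genes of the citric acid cycle and pyruvate dehydrogenase and 12 of 12 glycolytic genes (median log2 2.27). Of all 5126 genes 19.3% were called higher. Among 4 regulators of mitochondrial biogenesis ewg was called lower, with a log2 fold change of -1.31 ± 0.22, and none higher.

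Neuroblasts and neurons had close totals of these transcripts in the MeOH library, and neuroblasts a lower total in the fresh library. Summed over members, neuroblasts had 23937 CPM and neurons 23804 CPM in the MeOH library, and 23871 and 26672 CPM in the fresh library. With mt: and ribosomal protein rows left out of the denominator, the log2 ratio of neuroblasts over neurons was 0.19 in place of 0.01 in MeOH and 0.014 in place of -0.16 in fresh cells. Called higher in neuroblasts were 5 of 60 members, and 16 were lower, where 27.1% of all 5625 genes were called higher, 33.7% lower and 60.7% in either direction, so the members' share of calls lay below that of all genes. The members' median log2 of -0.07 lay beside -0.06 for all genes. With library totals in place of TMM factors 9 were higher and 7 lower with a median of 0.03, so the balance of directions depends on the scaling. Ribosomal protein rows took 304010 CPM of neuroblasts and 216154 CPM of neurons in the MeOH library.

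A few members differed whatever the scaling. ND-23 ranged from 100 to 190 CPM (median 132) in neuroblasts, against 57.9 to 84.2 CPM (median 76.3) in neurons. It was higher in 7 of 7 lines with no overlap and a log2 fold change of 0.80 ± 0.16 (SE, adjusted p = 0.00011, edgeR quasi-likelihood, Benjamini-Hochberg), and the fresh library gave 0.80. UQCR-6.4, a small subunit of complex III, ranged from 305 to 752 CPM (median 631) in neuroblasts and from 260 to 355 CPM (median 319) in neurons. Its log2 fold change was 0.76 ± 0.11 (SE, adjusted p = 4.21e-06, edgeR quasi-likelihood, Benjamini-Hochberg), higher in 7 of 7 lines.

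In the other direction stood 16 members, 7 of them accessory subunits of complex I and the rest subunits of complexes II to V. ND-B22 ranged from 195 to 333 CPM (median 216) in neuroblasts and from 279 to 400 CPM (median 330) in neurons. It was lower in 6 of 7 lines, with a log2 fold change of -0.66 ± 0.12 (SE, adjusted p = 4.5e-05, edgeR quasi-likelihood, Benjamini-Hochberg). COX7C had a log2 fold change of -0.48 ± 0.10 and UQCR-14 of -0.45 ± 0.10, both lower in 7 of 7 lines. The accessory subunits ND-AGGG, ND-15 and ND-B14.7 had values between -0.51 and -0.50. Of complex V, ATPsynE, ATPsynB and ATPsynD were called lower and none higher, the largest being ATPsynE at -0.30 ± 0.09. SdhC was the 1 member of complex II called lower, and it lost its call without any 1 of 5 lines. Leaving out DGRP-639 left 3 members higher and 8 lower, and leaving out DGRP-409 left 5 and 10.

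Of complex I, 4 members were called higher in neuroblasts against 7 lower. Besides ND-23 these were the core subunit ND-20 (log2 fold change 0.39), ND-B16.6 (0.33) and ND-SGDH (0.29). ND-20 lost its call without DGRP-639 and ND-B16.6 without DGRP-136 (each adjusted p = 0.074, edgeR, Benjamini-Hochberg), and ND-SGDH without any 1 of 5 lines.

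GMC carried less of complex V and of complex II than neurons per UMI of all genes. The summed level of complex V was lower in 7 of 7 lines, at 5737 to 7981 CPM (median 6995) in GMC, against 8060 to 9307 CPM (median 8664) in neurons. The lowest GMC value is that of DGRP-639, where 1 very deep cell described below weighs on the sum. Without that cell DGRP-639 had 8564 CPM in GMC and 8664 CPM in neurons, and the GMC lines ranged from 6260 to 8564 CPM (median 7848), again lower in 7 of 7 lines though overlapping. Of 60 members, 6 were called higher and 14 lower, where 21.4% of all 4713 genes were called higher, 29.7% lower and 51.1% in either direction. The median log2 was -0.12 for the members and -0.10 for all genes. In fresh cells 14 of 14 called lower and 4 of 6 called higher kept their direction. Ribosomal protein rows had a median over lines of 277128 CPM in GMC and 213918 CPM in neurons. With these and the mt: rows left out of the denominator, the log2 ratio of the summed members in fresh GMC over neurons was -0.24 in place of -0.37. In the MeOH library that denominator gave 29480 CPM in GMC, deep cell included, and 31253 CPM in neurons. With all rows these were 21074 and 23804 CPM, so the size of the difference depends on the denominator. Without DGRP-45 the counts were 1 higher and 18 lower, without DGRP-382 2 and 11, and without DGRP-136 6 and 8.

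SdhA showed the largest fall of all members. It ranged from 8.73 to 41.7 CPM (median 25.8) in GMC, against 48.1 to 83.2 CPM (median 59.3) in neurons, without overlap. The log2 fold change was -1.27 ± 0.32 (SE, adjusted p = 0.0017, edgeR quasi-likelihood, Benjamini-Hochberg), and the fresh levels were 30.5 and 61.3 CPM. SdhD was lower as well, with a log2 fold change of -0.62 ± 0.21. The largest fall of complex I was that of ND-42 (-0.63 ± 0.24), which lost its call without any 1 of 5 lines, and that of complex IV was COX7C (-0.46 ± 0.11).

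UQCR-6.4 rose in GMC as in neuroblasts. It ranged from 433 to 751 CPM (median 552) in GMC and from 260 to 355 CPM (median 319) in neurons, without overlap, with a log2 fold change of 0.97 ± 0.12 (SE, adjusted p = 3.92e-07, edgeR quasi-likelihood, Benjamini-Hochberg). The contrasts of neuroblasts and of GMC share the same neurons. The other members called higher, all of complex I, were ND-23, ND-13B, ND-B15, ND-B14.5B and ND-B16.6, with log2 fold changes between 0.37 and 0.51. Each of these lost its call without at least 1 line and under another scaling, and ND-13B and ND-B14.5B had the opposite sign in the fresh library (-0.42 and -0.15).

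Among the subunits of complex V, ATPsynC, ATPsynB, ATPsynD, ATPsynE and ATPsynF were called lower in GMC and none higher. ATPsynC ranged from 1092 to 1729 CPM (median 1208) in GMC and from 1532 to 1884 CPM (median 1697) in neurons. In GMC of DGRP-639 it had 1104 CPM, and 1667 CPM without the very deep cell of that line. With that cell kept, ATPsynC was lower in 6 of 7 lines, with a log2 fold change of -0.39 ± 0.10 (SE, adjusted p = 0.0025, edgeR quasi-likelihood, Benjamini-Hochberg). Of the companion lists, 12 of 12 glycolytic genes and 7 of 11 genes of the citric acid cycle and pyruvate dehydrogenase were lower in GMC. Of all 4713 genes 29.7% were called lower. Of 8 subunits outside the symbol patterns 3 were lower and Cyt-c-p was higher. Of 4 carrier and pore genes 3 were lower and Ant2 was higher. Of 4 biogenesis regulators Dref and ewg were higher and 0 lower.

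A single cell annotated as GMC weighs on these sums, and it was kept in the tests, ranges and medians of GMC except where stated. In DGRP-639 a cell of 37249 UMIs, 34.9% of that line's GMC transcripts, held 13701 UMIs of Peritrophin-15a and only 1826 CPM of the members. Its next highest rows were CG12934 (4237 UMIs) and Peritrophin-15b (3838 UMIs). The next deepest GMC cell of that line had 5403 UMIs, and whether the deep cell is a GMC was not tested. Without it the MeOH GMC level was 22242 CPM in place of 21074 CPM, and 6 members were called higher and 15 lower than in neurons.

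Set directly against GMC, neuroblasts were higher in the summed level in 7 of 7 lines. The sum ranged from 22817 to 25095 CPM (median 24008) in neuroblasts and from 15612 to 23903 CPM (median 21628) in GMC, and in the fresh library it was 23871 and 20632 CPM. Without the deep cell of DGRP-639 the GMC lines ranged from 20311 to 23903 CPM (median 22762), and neuroblasts were again higher in 7 of 7 lines. Few members passed on their own, with 2 of 59 higher and 2 lower, where 15.4% of all 2220 genes were called higher, 14.6% lower and 30.0% in either direction. ND-42, an accessory subunit of complex I, ranged from 90.3 to 192 CPM (median 133) in neuroblasts and from 41.8 to 83.3 CPM (median 62.5) in GMC. The ranges did not overlap, and the log2 fold change was 1.04 ± 0.26 (SE, adjusted p = 0.0065, edgeR quasi-likelihood, Benjamini-Hochberg). ATPsynC was higher too, by 0.36 ± 0.10, and lost its call without DGRP-136 or DGRP-382 (adjusted p = 0.060 and 0.051, edgeR, Benjamini-Hochberg).

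Lower in neuroblasts than in GMC were ND-B15, with a log2 fold change of -0.64 ± 0.17, and UQCR-11, with -0.25 ± 0.08. ND-B15 fell below GMC in 5 of 7 lines, and the fresh levels were close, at 163 CPM in neuroblasts and 169 CPM in GMC. UQCR-11 kept its call only with DGRP-45 or DGRP-502 left out among the 7 omissions of a line.

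Per UMI of all genes, glia carried less than neurons in all 5 lines with at least 10 glial cells, by an amount that depends on the denominator. Their summed level ranged from 18760 to 21149 CPM (median 20205) in glia and from 22489 to 26139 CPM (median 23383) in neurons, without overlap, and the fresh values were 22387 and 26672 CPM. With mt: and ribosomal protein rows left out of the denominator, the log2 ratio of glia over neurons was -0.10 in place of -0.26 in MeOH and -0.057 in place of -0.25 in fresh cells, and as a mean over fresh cells it was -0.14. Complexes II, III, IV and V were each lower in 5 of 5 lines, and complex I was higher in 1 line. Over single members 1 was called higher and 7 lower, where 21.2% of all 5748 genes were called higher, 25.5% lower and 46.7% in either direction. The median log2 was -0.16 for members and -0.14 for all genes. Fresh glia gave the same direction for 8 of 8. DGRP-382 and DGRP-502 had too few glia to enter. Ribosomal protein rows had a median of 285540 CPM over glial lines and 212419 CPM over neuronal lines. Without DGRP-136 4 members were called lower, and without DGRP-45 none was called higher.

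The largest called fall in glia was that of ATPsynD, a peripheral stalk subunit. It ranged from 433 to 662 CPM (median 546) in glia and from 796 to 1043 CPM (median 873) in neurons, without overlap, with a log2 fold change of -0.59 ± 0.14 (SE, adjusted p = 0.00097, edgeR quasi-likelihood, Benjamini-Hochberg). UQCR-14 (-0.58 ± 0.15) and COX8 (-0.53 ± 0.15) were lower in 5 of 5 lines as well, as were ATPsynbeta, COX6B, ATPsynO and UQCR-11. SdhA had a larger log2 difference (-0.76 ± 0.38) that did not pass the test. COX6B lost its call without DGRP-136, and UQCR-11 without DGRP-136 or DGRP-761.

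ND-B14.5A alone was higher in glia, as it was in mature-like neurons. It ranged from 110 to 185 CPM (median 141) in glia and from 74.6 to 122 CPM (median 92.9) in neurons, higher in 5 of 5 lines with overlapping ranges, and its fresh levels were 177 and 101 CPM. The log2 fold change was 0.68 ± 0.23 (SE, adjusted p = 0.014, edgeR quasi-likelihood, Benjamini-Hochberg), and the call was lost without DGRP-45 (adjusted p = 0.061).

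**Figure D3:**
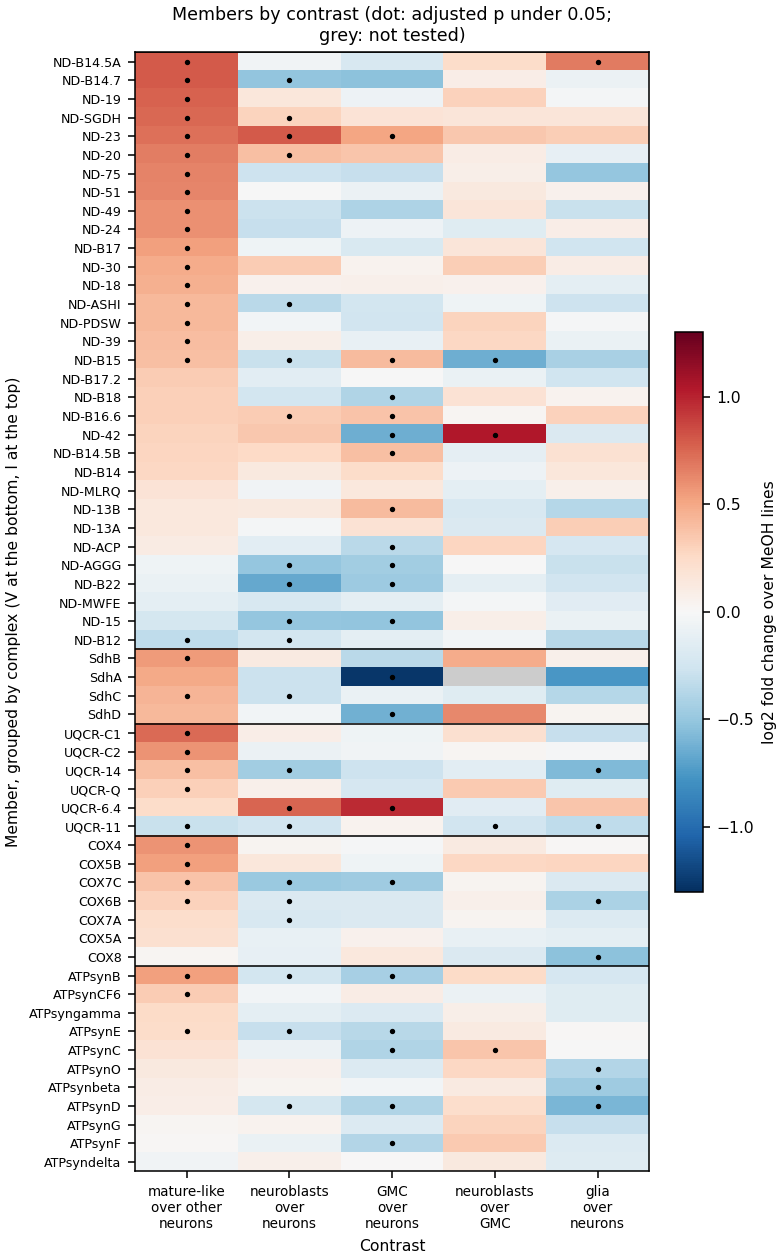
Log2 fold change over MeOH lines for each tested member (rows, grouped by complex) in 5 contrasts (columns), with red higher and blue lower in the class named first and a dot where the adjusted p was under 0.05. The first column is mostly red with 30 members called higher, whereas UQCR-6.4 stands out red in neuroblasts (0.76) and GMC (0.97) and SdhA blue in GMC (-1.27).

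Mitochondrially encoded transcripts showed little relation to the nuclear members over annotation values. Over the 35 annotation values, Pearson's r between the 2 summed levels was -0.05 in MeOH (rho 0.0028) and -0.23 in fresh cells (rho -0.30), as a description, since both sums share the library total. In mature-like against other neurons, however, mt: rows were higher in 7 of 7 MeOH lines, at 21077 to 26731 CPM (median 24452) in mature-like and 18743 to 24704 CPM (median 20916) in other neurons, and the ranges overlapped. In the fresh library they had 13340 CPM in mature-like and 14054 CPM in other neurons. Per UMI of nuclear members, MeOH neurons had 0.932 UMIs of mt: rows and fresh neurons 0.523. Protein-coding rows held 79.8% of the mt: UMIs in MeOH neurons and 97.7% in fresh neurons. With protein-coding mt: rows alone the ratios were 0.744 and 0.511, so the libraries then lay closer. Over the 7 MeOH lines the neuronal ratio of all mt: rows was 0.944 ± 0.115 (SD, n = 7), and all lines lay between 0.811 and 1.09, above the fresh value.

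The order of classes by this ratio was alike in the libraries at its low end. Mature-like neurons were lowest of the classes plotted, with 0.892 in MeOH and 0.434 in fresh cells, and other neurons came next with 0.943 and 0.542, then neuroblasts with 0.981 and 0.596. Within the mature-like class, cluster 3 (0.867 in MeOH and 0.428 in fresh) and cluster 33 (0.790 and 0.388) were low. The mature-like G-KC cells were not, with 1.34 in MeOH and 0.678 in fresh cells, above the other neurons in both libraries. GMC had 1.15 in MeOH and 0.672 in fresh cells, and glia 1.31 and 0.737. Cluster 1 had the highest ratio of the MeOH classes (1.43) and Lamina of the fresh classes (0.866). Among annotation values the glia annotated CTX were highest in both libraries, with 1.58 in MeOH and 0.875 in fresh cells.

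**Figure D4:**
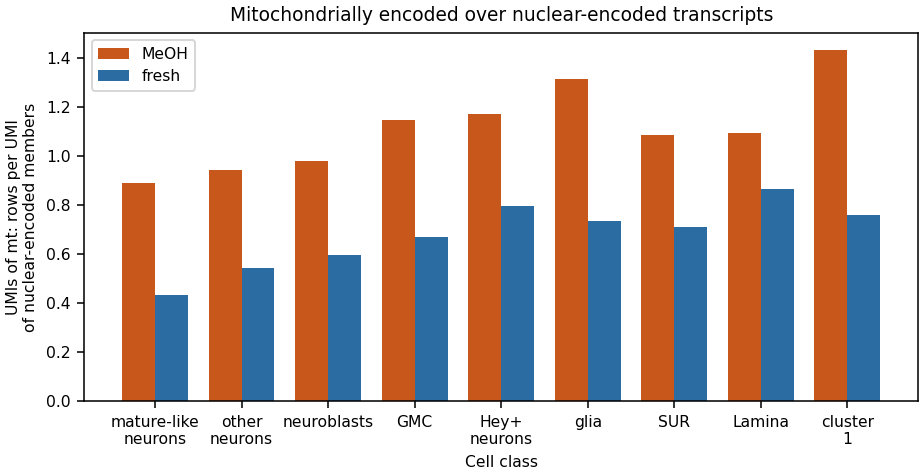
UMIs of mt: rows per UMI of nuclear-encoded members in each class, as 1 bar per library (MeOH left, fresh right). All mt: rows are counted, and protein-coding rows held 79.8% of their UMIs in MeOH neurons and 97.7% in fresh neurons. MeOH bars are taller in every class shown, and mature-like neurons have the shortest bar in both libraries (0.892 and 0.434). The mature-like bars include the G-KC cells, whose own ratios were 1.34 in MeOH and 0.678 in fresh cells.

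The libraries also differed in the nuclear members themselves. In neurons complex V had 8582 CPM in MeOH and 10879 CPM in fresh cells, a ratio of 0.789, whereas complex III had a ratio of 1.06. Only UQCR-6.4 was at least 1.5-fold higher in MeOH (315 against 199 CPM), 1 of 60 members where 13.5% of all 5835 genes were. ATPsynbeta (847 against 1322 CPM) and ATPsynC (1705 against 2558 CPM) were at least 1.5-fold lower, 2 of 60 members where 10.3% of all genes were. With 1 library each, no test was possible.

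Between lines the summed level in neurons was narrow, from 22489 CPM in DGRP-45 to 26139 CPM in DGRP-409, with a ratio of 1.16 between these lines. The lines differed in mature-like cells, with 10 of 214 neurons in DGRP-45, 44 of 240 in DGRP-409 and 55 of 194 in DGRP-502. Among other neurons alone DGRP-502 was lowest (20975 CPM) and DGRP-409 highest (24052 CPM), with DGRP-45 at 22560 CPM. The part of this mixture in the line levels was not tested. Single members varied more, and 2 of 59 had a line at least 1.5-fold over the median line, where 8.17% of all 2032 genes with at least 500 UMIs had one. UQCR-11 (chromosome 3L, 25120709 to 25126171 in dm6) had 2056 CPM in neurons of DGRP-761, against 1090 to 1237 CPM in the other 6 lines. The same line was highest in each of the 5 classes plotted, with 1943 CPM in mature-like neurons, 2078 CPM in other neurons, 1827 CPM in neuroblasts, 1917 CPM in GMC and 1503 CPM in glia. ND-B12 (chromosome 2R, 21658078 to 21658777) had 685 CPM in neurons of DGRP-409, followed by 462 CPM in DGRP-382 and 321 to 388 CPM in the other 5 lines. DGRP-409 was highest for ND-B12 in neuroblasts (631 CPM) and GMC (748 CPM) too, but hardly so in glia (357 CPM, beside 339 CPM in DGRP-136). Lines were not compared by a test, since each came from 1 pool.

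**Figure D5:**
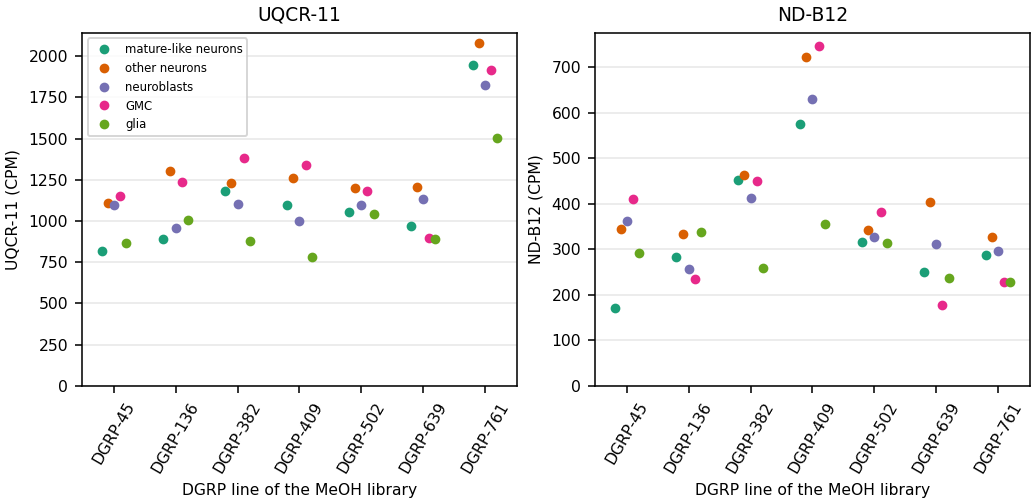
CPM of UQCR-11 (left) and ND-B12 (right) in each DGRP line of the MeOH library, with 1 point per class. All 5 UQCR-11 points of DGRP-761 lie above every point of the other lines, with the lowest at 1503 CPM, and the ND-B12 points of DGRP-409 other than glia (357 CPM) lie above every point of the other lines.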

How the data were processed

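The deposited matrices hold counts, as UMIs per gene and cell barcode. Cell Ranger, Seurat and the dm6 build are named in the submitters' processing notes, and the annotation and doublet treatment are not given in the sources used here. Only the 5056 cells of the authors' deposited table were used, with its annotation and line. The percent of mitochondrial UMIs per cell in the authors' deposited table was only summarised per library and enters no result given here. 1 row without a name (1.82e-05% of UMIs) was left out, and 0 sample columns were unused. Members, lists and classes were chosen with earlier results of these data known. Gene positions were taken from the RefSeq table of the same build, where all 80 members matched.

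Counts were summed per class and library or line and scaled to CPM, and Poisson intervals cover counting error only. A line entered a contrast if each class had 10 cells or more, in edgeR 4.0.16 (filterByExpr, TMM, line as block). DESeq2 1.42.0, other scalings, filters, denominators and omissions of each line were alternatives. The test script was checked on simulated counts. Named in each contrast were, per complex, the called members with the largest change in each direction, the most abundant member and called members against the majority, with at most 5 per contrast of the last, and by level the highest and lowest rows and all copies. Others were named after their values were seen.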

Additional observations from a re-analysis of the deposited data

Results flagged for a closer look

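In 12 cases 1 of the 7 MeOH lines lay apart from the rest by Dixon's ratio, which chance alone gives in about 1 of 20 groups; 60 members in neurons and 36 sums by class were compared. DGRP-409 was high in neurons for ND-B12 (685 CPM), SdhC (317 CPM), UQCR-Q (750 CPM), ATPsynD (1043 CPM) and the sum of complex I (7533 CPM). DGRP-761 was high for UQCR-11 (2056 CPM) and for complex III in neurons (3958 CPM) and in other neurons (3858 CPM), and low for complex IV in neuroblasts (4192 CPM). Its high values are not separate cases, since the complex III sum includes UQCR-11 and neurons include other neurons. COX5A was high in neurons of DGRP-136 (879 CPM), ND-49 low in those of DGRP-382 (88.4 CPM) and ATPsynG low in those of DGRP-502 (813 CPM).

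ND-B14.5B was higher in GMC than in neurons in all 7 MeOH lines (log2 fold change 0.39), whereas the fresh library had -0.15. This difference between the libraries was not tested.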

How the results depend on the processing

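Of 840 recomputed values of named members, 678 kept direction and call, 132 lost the call, 10 gained it and 20 turned sign; where a count or sign below moved, the cause was not tested. Rises in mature-like neurons numbered 21 to 41 over the settings, and with cluster 3 left out no test was run, since 1 line kept 10 cells.

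Without the replicate block (the line, which names the same fly line in both classes), 40 members were higher and 0 lower in mature-like neurons by edgeR. Then 7 were higher and 8 lower in neuroblasts than in neurons (median log2 0.0033, ND-MLRQ 0.020), 3 higher and 1 lower in neuroblasts than in GMC, 6 and 12 in GMC, and 3 and 4 in glia (ATPsynC 0.11).

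Under library totals, neuroblasts had 9 higher and 7 lower than neurons (median 0.029, ATPsynC 0.024, ND-MLRQ 0.049), so 56.2% of called members were higher in place of 23.8%. GMC had 1 higher (UQCR-11 -0.0075), neuroblasts over GMC 5 higher and 0 lower, and ND-MLRQ in glia was -0.031. The median of all genes between neuroblasts and neurons was -0.06, -0.13 with median-ratio factors and 0.03 with totals; for GMC it was -0.10, -0.19 and -0.16, for glia -0.14, -0.19 and -0.24, and for neuroblasts over GMC 0.02, 0.02 and 0.13. Median-ratio factors left 1 higher and 22 lower in GMC (UQCR-11 -0.049). DESeq2 gave 2 higher in neuroblasts, 1 higher in GMC (UQCR-11 -0.054), and 1 higher and 0 lower for neuroblasts over GMC. Without a filter 2 were higher in neuroblasts, 1 in GMC (UQCR-11 -0.050), 5 higher and 0 lower in neuroblasts over GMC, and 0 higher in glia (ND-MLRQ -0.038).

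With lines of 20 cells or more, 1 member was lower in mature-like neurons, 3 higher and 4 lower in neuroblasts (ND-MLRQ 0.14), 2 higher in GMC, 0 lower in neuroblasts against GMC, and 0 higher and 1 lower in glia, where fewer lines entered. With cluster 1 among neurons 8 were lower in neuroblasts (ATPsynC 0.0027, ND-MLRQ 0.0022). Set against other neurons alone, a choice made after seeing the data, neuroblasts had 11 higher and 8 lower (median 0.028, ND-MLRQ 0.024). Without mt: and ribosomal rows 1 was lower in neuroblasts than in GMC.

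Leaving out each line gave 1 to 2 lower in mature-like neurons, 3 to 6 higher and 8 to 14 lower in neuroblasts, 1 to 6 higher and 8 to 18 lower in GMC, 1 to 4 higher and 1 to 2 lower in neuroblasts over GMC, and 0 to 1 higher and 4 to 8 lower in glia. In GMC, ND-MLRQ then ranged from -0.0011 to 0.23, SdhC from -0.13 to 0.011 and UQCR-11 from -0.038 to 0.10. In glia ATPsynC ranged from -0.073 to 0.032 and ND-MLRQ from -0.017 to 0.14.

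With a denominator lacking mt: and ribosomal rows, log2 ratios of the summed level in fresh cells were 0.27 for mature-like over other neurons (0.25 with all rows), 0.014 for neuroblasts over neurons (-0.16), -0.24 for GMC (-0.37), 0.26 for neuroblasts over GMC (0.21) and -0.057 for glia (-0.25). In MeOH cells they were 0.19 for neuroblasts (0.01) and -0.10 for glia (-0.26), and the highest over the lowest line was 1.20. As a mean over cells the fresh ratios were 0.30 for mature-like neurons, -0.35 for GMC and -0.14 for glia, and MeOH over fresh neurons was 0.906. With protein-coding mt: rows alone the mt ratio in neurons was 0.744 in MeOH and 0.511 in fresh cells, and its median over fresh cells was 0.541.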
